A study of Homo sapiens with 8 samples.

Results

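The change followed here is that of a MEL202 line with its mutant SF3B1 allele knocked out when Shld was taken away. MEL202 is an established human uveal melanoma cell line that carries an SF3B1 mutation. Shld is a small ligand that keeps proteins fused to a destabilising domain from being degraded. The comparison rests on 2 of 8 libraries of total transcript levels, the knockout line with and without Shld, and on 8601 named genes of 32087 loci with a mean rescaled FPKM of at least 5 over the 8 libraries. FPKM is fragments per kilobase of transcript, scaled by library size, so levels are per transcript length. The labels and the column names disagree on this line. The label gives a mutant-SF3B1 knockout, plus or minus Shld, at 2 days, with no destabilising domain. The columns of the deposited table add that domain knocked in at the wildtype SF3B1 allele and give 4 days without Shld. By the column names, then, withdrawal would remove the remaining wildtype SF3B1 protein, and by the label nothing is tagged. This cannot be settled here, because protein was not measured. Parental MEL202 cells, which carry no domain by any label, were sequenced with and without Shld (4 days without, by the column name) and serve as the background. The wildtype degron line, with the domain on wildtype SF3B1 and with the mutant allele still present, and the mutant degron line, with the domain on mutant SF3B1, were sequenced with Shld and after 2 days without. Each line and state had 1 library, and each kind of engineering was represented by 1 line. No difference described here therefore has a replicate check, and levels are given without p-values.

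SF3B1 is the largest subunit of SF3b, a part of the U2 small nuclear ribonucleoprotein, which holds the branch point of an intron before splicing. The tumour suppressor p53 is a transcription factor that is stabilised under many kinds of stress, including faults in RNA processing. Its target CDKN1A encodes p21, an inhibitor of cyclin-dependent kinases. When p21 holds these kinases back, the retinoblastoma family of proteins and the DREAM complex keep genes of DNA replication and mitosis silent. Replication genes are typically bound through E2F sites and mitotic genes through CHR elements, often beside CCAAT boxes.

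The libraries were compared as whole samples before single genes were read. The 75th percentile over loci lay at 10 in each library. A relative fragment count per unit of rescaled FPKM was inferred from the most common ratio of low values, parental cells with Shld over each library. It was 1.45 in the knockout line with Shld and 1.06 without, so the knockout library without Shld was read as the shallower of the pair. RPL and RPS transcripts took 18.9% and 17.9% of the summed values in the knockout pair. All 13 melanocyte markers measured had a mean of at least 5, and their sum went from 8768 to 7764 on withdrawal, where parental cells held 14230 and 15127. By log2 difference in the knockout pair, 6 of the 13 were above 0 and 7 below, with a median of -0.04. DCT, a late melanin enzyme, was low in the knockout line, at 2.04 with Shld. Of 8 epithelial, 6 endothelial, 6 fibroblast and 8 leukocyte markers measured, 8, 6, 4 and 7 were under 1 in both knockout libraries. The leukocyte marker that was not was CD68, at 833 with and 802 without Shld (parental 743 and 769). Of 8 retinal pigment epithelium markers, 3 were under 1 in both knockout libraries and 5 had a mean of at least 5. The 8 summed to 439 and 432 in the knockout pair, against 736 and 745 in parental cells. SF3B1 itself stood at 158 with and 138 without Shld, at 266 and 240 in parental cells, at 188 and 201 in the wildtype degron line and at 248 and 252 in the mutant degron line. Its difference of -0.19 in the knockout pair was close to the -0.15 of the parental pair, and the values do not separate the mutant from the wildtype allele. In bulk RNA, fewer cells with a transcript and less of it per cell cannot be told apart.

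Without Shld the knockout line had higher transcripts of p53 targets and lower transcripts of genes for cell-cycle kinases, DNA replication, chromosome segregation and recombination repair. A gene is called here where the ratio of (value + 1) was at least 1.5 either way, a log2 difference of 0.58. By that rule 123 genes rose (1.43% of 8601) and 206 fell (2.4%). In parental cells 9 rose (0.105%) and 67 fell (0.779%). In the wildtype degron line 17 rose (0.198%) and 47 fell (0.546%), and in the mutant degron line 19 rose (0.221%) and 8 fell (0.093%). At 2-fold the knockout pair had 15 higher and 14 lower, and the parental pair 2 and 3. The standard deviation of the log2 differences over genes was 0.26 in the knockout pair and 0.20 in the parental pair. The limit cut through a continuous range: TIMP3, GMIP and DAAM1 lay just inside it at 0.59, and SASH1, PRPF40B and MMP14 just outside at 0.58. On the lower side SCML1, LINC00339 and SAPCD2 lay just inside at -0.59, and C19orf40 and CENPN just outside at -0.58.

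**Figure D1:**
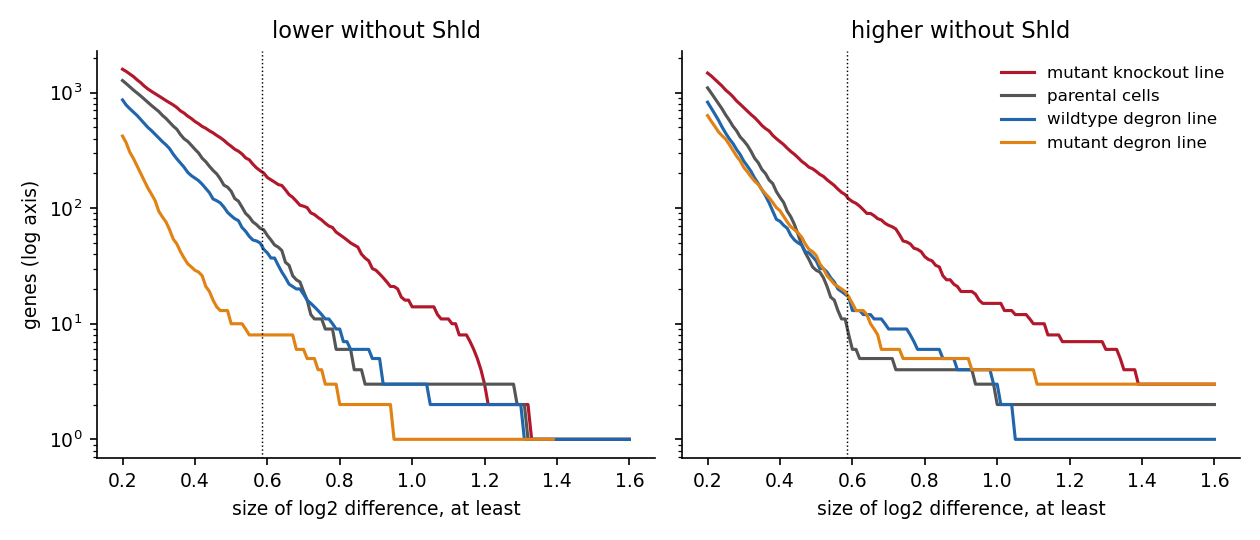
Number of genes (log axis) whose log2 difference without against with Shld was at least the size on the horizontal axis, lower on the left and higher on the right, for the 4 pairs of libraries. At the dotted 1.5-fold limit the mutant knockout line has 206 genes lower and 123 higher, against 67 and 9 in parental cells.

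Promoters of the genes that fell are shown ahead of their levels. Only 3 set letter patterns, those of the elements named above, were searched for. RefSeq promoters of GRCh38.p14, from 250 bases before to 50 after the start, matched 6979 of the 8601 genes, 166 of the 206 that fell and 93 of the 123 that rose. Each pattern was searched on both strands and matches could overlap. The CHR element was searched as TTTGAA or TTCGAA, the E2F site as TTTCCCGC, TTTCGCGC, TTTGCCGC or TTTGGCGC, and the CCAAT box as CCAAT. In the windows below, from 100 bases before to 30 after the start, capitals mark CHR and CCAAT matches. They belong to 3 mitosis genes with large falls that held both, of 15 such windows among 41 mitosis genes called lower with a promoter. The choice was not a full ranking by size of fall. ESCO2, a mitosis gene whose window is not shown, fell further (-0.89) than OIP5 (-0.85) and DEPDC1B (-0.82). KIFC1 lies at chr6:33391723-33391852 (+ strand), OIP5 at chr15:41332562-41332691 (- strand) and DEPDC1B at chr5:60700137-60700266 (- strand).
KIFC1: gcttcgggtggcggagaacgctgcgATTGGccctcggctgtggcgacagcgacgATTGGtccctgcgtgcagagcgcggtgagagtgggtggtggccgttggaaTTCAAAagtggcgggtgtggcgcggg
OIP5: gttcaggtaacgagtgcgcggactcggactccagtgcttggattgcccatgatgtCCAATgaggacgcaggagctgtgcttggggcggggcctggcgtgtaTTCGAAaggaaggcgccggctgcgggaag
DEPDC1B: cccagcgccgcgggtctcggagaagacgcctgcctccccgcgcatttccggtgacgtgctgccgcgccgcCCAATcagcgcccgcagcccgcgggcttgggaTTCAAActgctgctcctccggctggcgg

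The next 3 windows are those of the replication genes with the largest falls that held an E2F match, of 7 among 13 replication genes called lower with a promoter, and capitals mark the E2F letters. POLE2 lies at chr14:49688185-49688314 (- strand), MCM7 at chr7:100101368-100101497 (- strand) and GINS2 at chr16:85688925-85689054 (- strand).
POLE2: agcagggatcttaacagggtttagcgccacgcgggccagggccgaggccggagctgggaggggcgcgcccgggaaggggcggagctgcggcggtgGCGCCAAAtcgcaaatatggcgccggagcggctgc
MCM7: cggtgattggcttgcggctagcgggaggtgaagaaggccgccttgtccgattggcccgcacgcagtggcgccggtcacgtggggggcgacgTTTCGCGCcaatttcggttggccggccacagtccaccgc
GINS2: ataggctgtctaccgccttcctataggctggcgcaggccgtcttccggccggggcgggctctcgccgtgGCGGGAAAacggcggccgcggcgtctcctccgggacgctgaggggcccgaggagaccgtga

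Among the promoters of genes that fell, 26.5% held a CHR match (44 of 166), against 11.1% of all genes tested, 16.4% of all 35116 promoters of that length in the table and 4.30% of those that rose (4 of 93). An E2F match was present in 15.7% of the genes that fell (26), 6.06% of all tested and 5.38% of those that rose (5). CCAAT letters were present in 56.0% (93), 37.4% and 38.7% (36). CHR and CCAAT together were found in 19.3% of the genes that fell (32) and in 4.91% of all tested. The lists of mitosis and replication genes carried much of this: 66.7% of 78 mitosis promoters held a CHR match and 43.6% of 55 replication promoters an E2F match. Outside these lists, 14.3% of the 112 genes that fell held a CHR match (16), 11.6% an E2F match (13) and 56 a CCAAT match. Read the other way, the 343 genes with both CHR and CCAAT letters had a median difference of -0.09 in the knockout pair and +0.02 in the parental pair, and 9.33% of them fell, against 2.02% of the 6636 genes without. A match describes the letters in a window and is not a bound site.

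The p53 targets were the list with the most rises. Of 56 genes listed, 38 passed the filter on level, 14 rose and none fell, with a median of +0.45 against +0.0027 over all genes. In the parental pair none of the 38 was called and the median was +0.04. Without Shld the knockout line had the highest of the 8 levels for 23 of the 38 genes (60.5%), against 14.0% of all genes.

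Targets that act in growth arrest moved furthest, with 7 of 11 higher and a median of +0.83. CDKN1A, which encodes p21, stood at 88.9 with and 296 without Shld in the knockout line, at 98.9 and 109 in parental cells, at 118 and 155 in the wildtype degron line and at 94.3 and 96.5 in the mutant degron line. The knockout line thus started below every other library and ended above all of them (+1.73). GDF15, a secreted stress cytokine, stood at 202 with and 667 without Shld in the knockout line, at 511 and 640 in parental cells, at 931 and 1187 in the wildtype degron line and at 810 and 772 in the mutant degron line. Its rise of 1.72 began from the lowest of the 8 levels and ended only a little above the parental pair. BTG2, an antiproliferative factor, went from 11.6 to 25.9 (7.52 and 8.04 in parental cells), and ZMAT3, an RNA-binding zinc finger protein, from 15.5 to 36.2 (7.94 and 10.6). Both ended above every other library. TP53INP1, which acts in stress and autophagy, went from 42.1 to 85.9, GADD45A, a growth arrest and DNA damage protein, from 11.6 to 20.9, and PLK3, a stress-responsive kinase, from 5.51 to 10.5.

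Among p53 targets in death and feedback, all 8 and 5 of 6 were above 0. BAX, a pore-forming death effector, went from 114 to 195 (+0.77; parental 156 and 154), and PIDD, a death-domain adaptor, from 14.6 to 22.8 (+0.61; parental 19.2 and 14.4). These were 2 of 8 death genes. FAS, a death receptor, stood at 19.2 and 20.8 and PMAIP1, a BH3-only protein, at 10.4 and 10.4. Of 6 feedback genes 2 rose: MDM2, the ubiquitin ligase that degrades p53, from 28.4 to 51.6 (+0.84; parental 22.4 and 22.8), and RPS27L, a ribosomal protein paralog, from 146 to 256 (+0.80; parental 232 and 175). PPM1D, the phosphatase that switches off p53 signalling, stood at 15.5 and 20.2 (+0.36) and was not called. Of 14 targets in metabolism, repair and autophagy, SESN1 and SESN2, which restrain mTORC1, rose from 20.2 to 35.1 and from 6.68 to 11.7, and DRAM1, a lysosomal membrane protein, from 8.2 to 14.9. The nucleotide excision repair genes DDB2 (18.8 and 27.9, +0.55) and XPC (25.4 and 37.1, +0.53) lay under the limit. No gene of a list of 12 death receptors, caspases and their regulators was called, with a median of -0.01. With 1.43% of all genes higher and 2.4% lower, 0 calls in a list of this size is near that share.

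**Figure D2:**
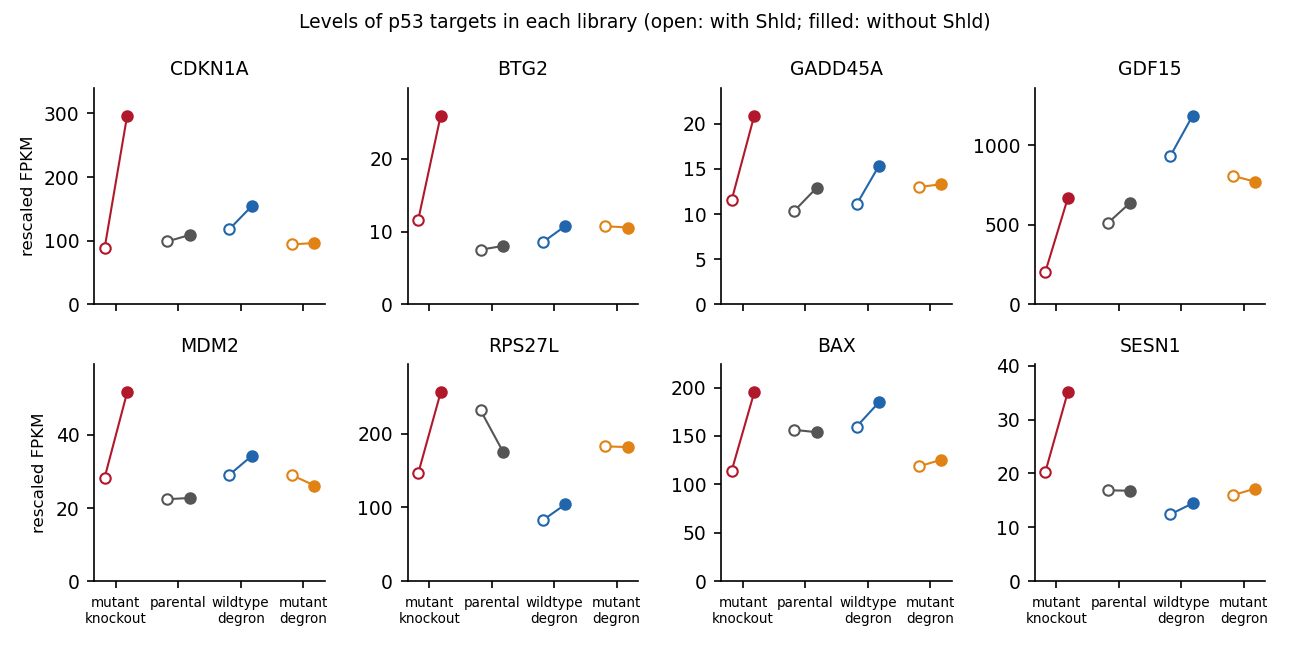
Rescaled FPKM of 8 p53 targets in each of the 8 libraries, with a line from the library with Shld (open) to the library without it (filled). CDKN1A reaches 296 in the knockout line without Shld, and its other 7 values lie between 88.9 and 155.

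Genes that control the cell cycle were mostly lower. Of 53 tested, 15 fell and 2 rose (median -0.39, parental pair +0.01). The CDK inhibitors went apart. CDKN1A rose, while CDKN2C, which encodes p18 and inhibits CDK4 and CDK6, fell from 16.2 to 6.46 (-1.21; parental 13.5 and 16.3), CDKN1C, which encodes p57, from 18.4 to 8.71 (parental 16.4 and 13.5), and CDKN3, a phosphatase of CDK2, from 86.7 to 56.4 (-0.61; parental 129 and 96.2). CDKN1B, which encodes p27, stood at 35.7 and 30.9 and was not called. Among 13 cyclins and CDKs, CCND1 (cyclin D1, the partner of CDK4) rose from 110 to 190 (+0.78). CCNB1 (the mitotic cyclin B1) fell from 159 to 105 (-0.59; parental 151 and 129). CCND1 ended at the parental level of 172 and 183, having started below it.

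Among 19 genes of the E2F, RB and MuvB group 4 fell (median -0.25): MYBL2 (B-MYB, which joins MuvB to switch on mitotic genes) from 103 to 56.7 (-0.85), FOXM1 (its partner later in the cycle) from 78.1 to 49.6 (-0.64), E2F2 (an activating E2F) from 7.09 to 4.33 (-0.60) and MXD3 (a MAX partner that represses transcription) from 20.3 to 8.28 (-1.20). Parental values were 66.2 and 76.9 for MYBL2 and 73.2 and 77.8 for FOXM1. Of the 19, 14 were below 0 and 5 above. RB1, at 21.4 and 22.9, and E2F4, at 45.5 and 47.9, were among those above 0. LIN54, a DNA-binding subunit of MuvB, stood at 11.1 and 9.15, and none of these was called. Of 13 kinases, phosphatases and ligases that act around G2, 7 fell and all 13 were below 0 (median -0.60, parental pair -0.0027). PLK4, the kinase that starts centriole duplication, went from 17.6 to 8.44 (-0.98; parental 15.3 and 15.5), FBXO5 (EMI1, an inhibitor of the anaphase-promoting complex) from 18.4 to 9.9, CDC25C from 9.49 to 5.56, AURKB from 111 to 67.3 and CHEK2, a DNA damage kinase, from 25.04 to 15.3.

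DNA replication genes fell in each step of the process. Of 63 tested, 14 fell, none rose and 61 were below 0 (median -0.47). In the parental pair 30 were below 0 (median +0.01). Origin licensing had 2 of 14 called. MCM7, a subunit of the replicative helicase, stood at 280 with and 155 without Shld in the knockout line, at 169 and 190 in parental cells, at 222 and 179 in the wildtype degron line and at 201 and 220 in the mutant degron line. It began as the highest of the 8 and ended as the lowest (-0.85). Its promoter window is the one shown above with TTTCGCGC. CDT1, the MCM loader, fell from 41.5 to 27.1 (-0.60). In origin firing 4 of 13 fell: CDC45, the helicase cofactor, from 50.05 to 29.4, the GINS subunits GINS1 and GINS2 from 33.6 to 21.8 and from 102 to 57.8, and CLSPN, a checkpoint mediator at the fork, from 10.97 to 6.47. GINS1 and GINS2 also went down in parental cells, from 31.4 to 25.7 (-0.28) and from 115 to 89.0 (-0.37). There CDC45 differed by -0.05 and CLSPN by +0.21. Of 23 polymerase and clamp genes 4 fell: POLA1, the catalytic subunit of primase-polymerase alpha, from 15.8 to 7.62 (-0.96; parental 11.8 and 13.9), POLE2 from 14.3 to 6.89 (-0.96; parental 13.1 and 11.7), POLD3 from 15.6 to 8.58 and RFC2, a clamp loader subunit, from 89.4 to 54.0. Nucleotide supply and chromatin assembly had 4 of 13: TK1 (thymidine kinase) from 319 to 170, RRM2 (ribonucleotide reductase) from 66.7 to 36.8, HELLS (a chromatin remodeller) from 18.8 to 10.99 and ASF1B (a histone chaperone) from 28.9 to 18.1.

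Mitosis genes were the list with the most falls, 46 of 92, with none higher, 90 below 0 and a median of -0.59. In the parental pair none was called, 47 were below 0 and the median was -0.0036. At the centromere and kinetochore 13 of 30 fell. SPC24, a subunit of the NDC80 complex that binds microtubules, stood at 31.8 with and 13.7 without Shld in the knockout line, at 28.0 and 25.7 in parental cells, at 27.6 and 22.3 in the wildtype degron line and at 32.5 and 32.7 in the mutant degron line, a fall of 1.16 in the knockout pair. Its level without Shld was the lowest of the 8 by a wide margin. CENPA, the centromeric histone, fell from 45.7 to 23.9, CENPI from 12.5 to 6.49 and OIP5, which loads CENPA, from 19.99 to 10.6. OIP5 is less clear against the background: it stood at 25.3 and 17.7 in parental cells, a difference of -0.49 there. Among spindle genes 15 of 23 fell, with KIFC1, a minus-end kinesin, at 73.4 and 38.6 (-0.91; parental 53.7 and 55.8), KIF20A at 54.5 and 31.1 and KIF2C at 41.4 and 24.7. KIAA0101, which the list places here, encodes a PCNA-associated factor and fell from 128 to 71.6 (parental 147 and 111).

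The other roles in mitosis gave like counts. In the checkpoint and anaphase-promoting complex 5 of 14 fell, among them BUB1, a checkpoint kinase, from 68.6 to 41.8 and CDC20, the activator of that complex, from 99.9 to 61.8. In condensin and cohesin 7 of 14 fell. TOP2A, the topoisomerase that untangles chromosomes, stood at 148 with and 84.6 without Shld in the knockout line, at 117 and 122 in parental cells, at 141.4 and 116 in the wildtype degron line and at 182 and 177 in the mutant degron line (-0.80). The condensin I subunits NCAPG and NCAPH fell from 37.8 to 22.6 and from 37.2 to 23.8, and ESCO2, a cohesin acetyltransferase, from 41.7 to 22.1. In cytokinesis 6 of 12 fell. IQGAP3, a scaffold protein, had the largest fall there, from 46.3 to 20.7 (-1.12; parental 41.2 and 38.6), followed by DEPDC1B from 48.1 to 26.8 and RACGAP1, a subunit of centralspindlin, from 69.9 to 41.5.

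**Figure D3:**
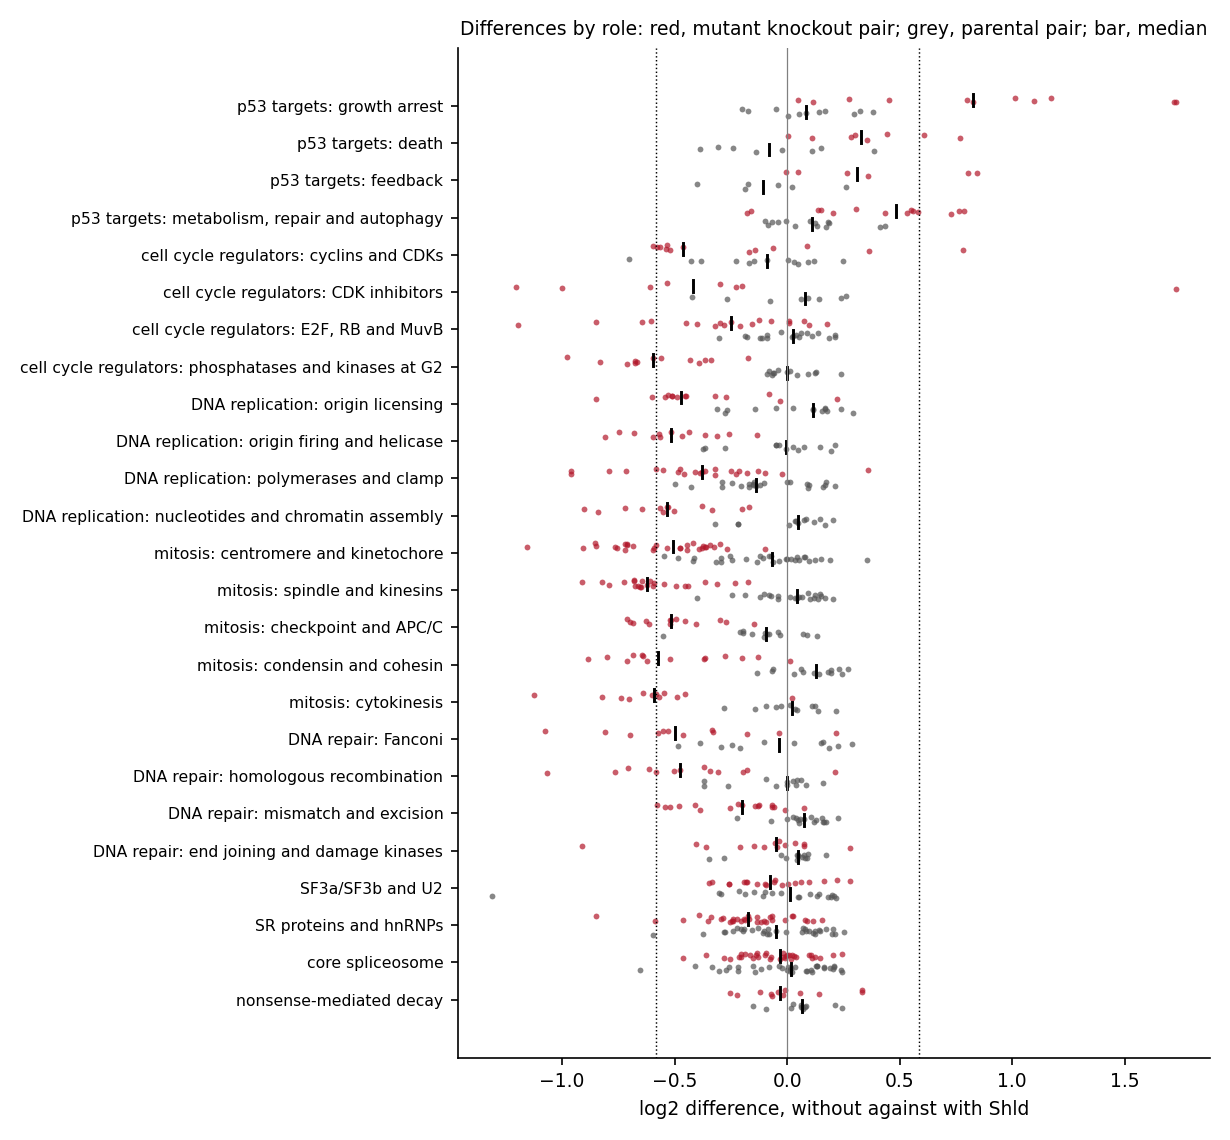
Log2 difference without against with Shld for each gene, by list and role, in the knockout pair (red) and the parental pair (grey), with black bars for medians and dotted lines at the 1.5-fold limit. Red medians of the 5 mitosis roles lie between -0.62 and -0.51, and the red median of p53 growth arrest genes lies at 0.83.

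Of 56 DNA repair genes 8 fell and none rose, and 49 were below 0, against 19 in the parental pair (medians -0.28 and +0.05). The Fanconi group, which repairs crosslinks, had 3 of 12 lower, and homologous recombination 4 of 13, with medians of -0.50 and -0.48. Mismatch and excision repair had 0 of 17 called, with a median of -0.20, and end joining and damage kinases 1 of 14, with a median of -0.05. FANCD2, the ubiquitinated core of the Fanconi pathway, fell from 36.4 to 16.8 (-1.07), where parental cells held 28.5 and 26.4, wildtype degron cells 25.1 and 18.3, and mutant degron cells 34.4 and 34.2. FANCA went from 22.8 to 12.6 and BRIP1, a helicase, from 17.01 to 10.1. RMI2, a partner of the BLM helicase, went from 27.0 to 12.4 (-1.07; parental 34.7 and 35.4), BLM itself from 9.23 to 5.68 and RAD54L from 20.4 to 12.1. RAD51AP1, a strand exchange factor, went from 27.3 to 15.6, and from 30.9 to 23.7 in parental cells. The 1 call among end joining and damage genes was H2AFX, the histone variant that marks breaks, from 58.6 to 30.7 (-0.91). PRKDC, the kinase of end joining, stood at 146 and 154, and ATM at 14.6 and 15.0.

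Of 11 genes of the histone list that passed the level filter 3 fell and none rose. All 11 were below both parental libraries without Shld, against 46.7% of all genes, and 5 of them were already below both with Shld. The list is not complete, and histone genes outside it passed the filter too. Among those, HIST3H2BB stood at 31.0 and 24.0 (parental 59.4 and 47.1). HIST1H2BH stood at 5.28 and 6.65 and ended above both parental libraries (6.16 and 6.33). HIST1H1C, a linker histone, stood at 27.6 with and 10.4 without Shld in the knockout line, at 36.4 and 34.1 in parental cells, at 53.1 and 20.8 in the wildtype degron line and at 33.9 and 47.5 in the mutant degron line. It fell in the knockout pair (-1.33) and in the wildtype degron pair (-1.31), and had the largest fall of the knockout pair among genes with both knockout libraries at 1 or more. The other called members were CENPA and H2AFX. Since many histone messages lack a poly(A) tail, their level depends on how RNA was selected. Only 3 of the 17 replication-dependent core histone genes on the list passed the level filter.

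**Figure D4:**
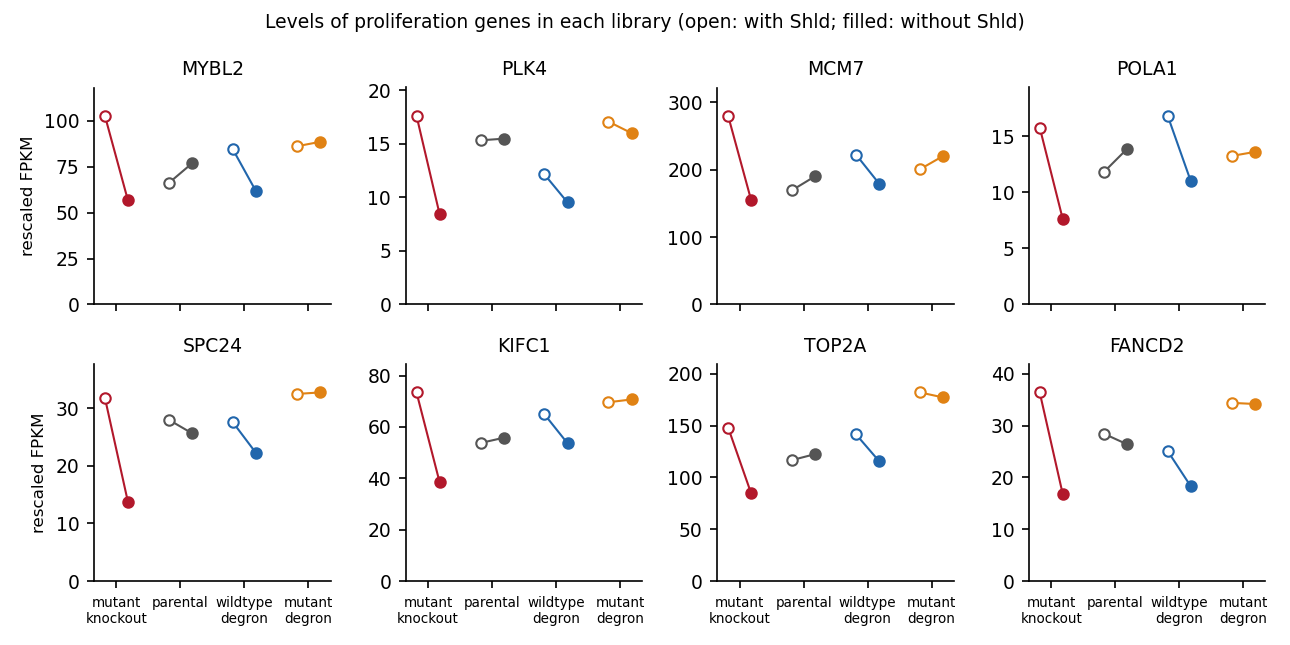
Rescaled FPKM of 8 genes of the cell cycle, replication, mitosis and repair in each of the 8 libraries, with a line from the library with Shld (open) to the library without it (filled). In the knockout line every line slopes down, and SPC24 ends at 13.7 against 22.3 or more in the other 7 libraries.

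The knockout line with Shld did not start from the parental level. Levels in the knockout line were set against the mean log2 level of the 2 parental libraries. With Shld the mitosis list stood at a median of +0.18 and without it at -0.37. The replication list moved from +0.19 to -0.25, cell cycle regulators from +0.07 to -0.29 and DNA repair from +0.22 to -0.03. The median over all genes was -0.02 and -0.03. With Shld, 58 of 92 mitosis genes (63.0%) and 40 of 63 replication genes (63.5%) were above both parental libraries, against 41.0% of all genes. The highest of the 8 levels was there for 24 of the replication genes (38.1%), against 13.4% of all genes. For mitosis genes it was there for 13 (14.1%), near the share of all genes. Without Shld, 73 mitosis genes (79.3%) and 49 replication genes (77.8%) were below both parental libraries, against 46.7% of all genes, and 48 and 23 were the lowest of the 8, against 14.2%. Of the 206 genes that fell, 58 were below both parental libraries in both states and 13 above in both. p53 targets moved from +0.11 to +0.46.

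**Figure D5:**
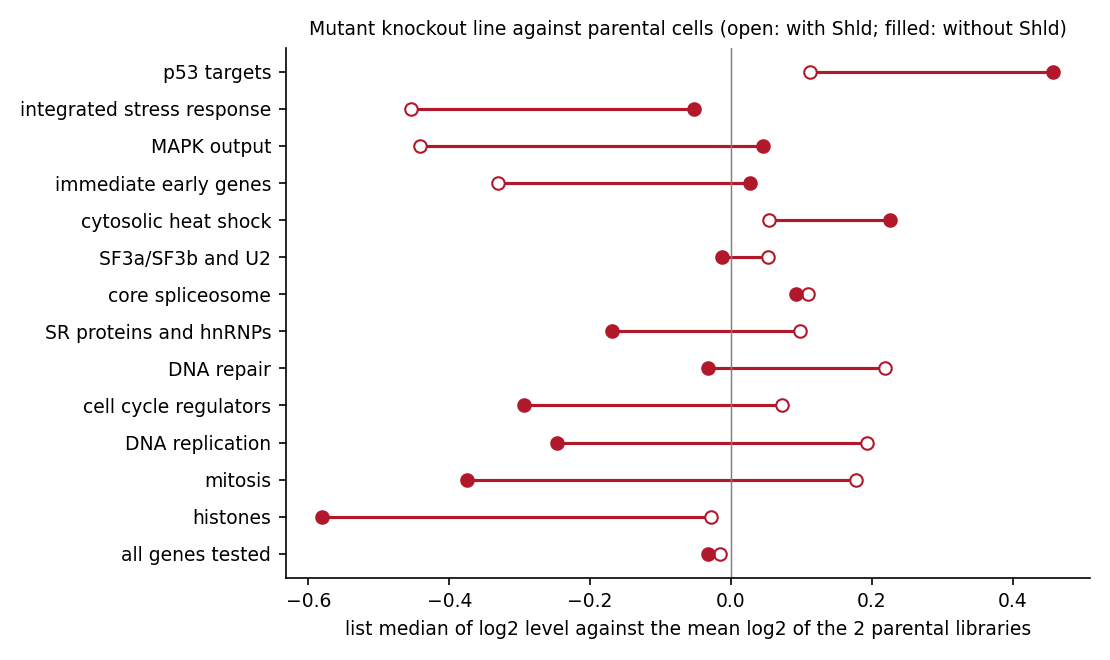
Median log2 level of each list in the knockout line against the mean log2 of the 2 parental libraries, with Shld (open) and without (filled). Mitosis genes move from 0.18 above to -0.37 and p53 targets from 0.11 to 0.46, and the integrated stress response starts at -0.45 and ends at -0.05.

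Genes of the integrated stress response and of MAPK output started below parental cells in this line, while growth factor receptors (median +0.83) and YAP targets (+1.05) started above them. The integrated stress response, the program that ATF4 drives when translation initiation is held back, began at a median of -0.45 against parental cells and ended at -0.05. In the pair itself 3 of 26 rose (median +0.27, parental pair +0.14). CHAC1, which degrades glutathione, went from 10.7 to 29.6 (+1.39), ending near the parental 33.8 and 31.5, and NUPR1, a stress-induced chromatin protein, from 71.7 to 112 against 172 and 183. SESN2, counted above, was the third. DDIT3 (CHOP) stood at 28.9 and 38.1 against 83.7 and 82.0, and PHGDH, the first enzyme of serine synthesis, at 185 and 125 (-0.57), neither called. MAPK output genes, which report on the pathway that drives uveal melanoma, moved from -0.44 to +0.05, with 3 of 10 higher: DUSP4, an ERK phosphatase, from 57.1 to 91.1 (parental 86.4 and 85.7), EPHA2, a receptor kinase, from 19.5 to 33.1 (7.07 and 8.65), and CCND1. EGR3, an immediate early factor, went from 4.26 to 11.9 (4.64 and 7.08), 1 of 17. CRYAB, a small heat shock protein, rose from 937 to 1717 (+0.87; parental 526 and 546), the only call among 11 cytosolic heat shock genes.

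The splicing machinery gave few calls. Of 20 genes of SF3a, SF3b and the U2 particle, 35 of the core spliceosome and 12 of nonsense-mediated decay, 0 were past the limit in the knockout pair, with medians of -0.08, -0.03 and -0.03. Over all genes 1.43% rose and 2.4% fell, so 0 calls in lists of this size is near that share. SF3B3, a partner of SF3B1 in SF3b, stood at 59.8 and 72.7 (+0.28), SF3B2 at 147 and 147, and SNRPA1, a U2 protein, at 71.2 and 56.2 (-0.34). SMG5, a decay factor that its own pathway is known to restrain, stood at 61.0 and 77.2 (+0.33), against +0.02 in parental cells. Of 33 SR proteins, hnRNPs and CLK kinases 2 fell. HNRNPA1, a splicing repressor, went from 910 to 605 (-0.59; parental 662 and 766), and HNRNPH1 from 22.3 to 11.9 (-0.85), but HNRNPH1 also fell in parental cells, from 31.6 to 20.6. BRD9, a chromatin remodelling subunit whose transcript carries a poison exon in SF3B1-mutant cells, fell from 44.0 to 28.4 (-0.61; parental 38.4 and 37.6), 1 call among 21 genes whose splicing is altered in such cells. Gene-level values do not show splicing itself.

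Gene structure was read from GENCODE 29, which matched 8431 of the 8601 genes, 8269 of them coding. Of 138 coding genes with no intron in their longest model 7 rose (5.07%) and 2 fell (1.45%). Of 668 genes with 1 to 2 introns 2.54% rose and 1.05% fell, and of 1021 with over 20 introns 1.57% rose and 3.04% fell. In parental cells 0 of the 138 were called. Those that rose included CEBPD, a transcription factor, FZD1, a Wnt receptor, IER5L, FAM43A, FBLL1 and NANOS1, of which NANOS1 was near 0 in the knockout line with Shld and stood at 0.863 without. IER5L went from 9.85 to 18.6, FZD1 from 11.7 to 19.9 and CEBPD from 12.6 to 21.2. Most of these are low, and the median difference of the 138 genes was +0.04, below the +0.05 of the parental pair. The median number of introns was 6 in genes that rose, 10 in genes that fell and 8 in the rest. Across the 8269 genes the Spearman correlation of the difference with transcript length was 0.14 in the knockout pair and 0.27 in the parental pair, and with intron number 0.01 and 0.17. These describe genes within the same libraries, which are not independent.

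Among listed genes not yet described, HIP1R, which links clathrin coats to actin, rose from 24.7 to 55.3 (parental 52.8 and 52.0), and DDR1, a collagen receptor kinase, from 25.8 to 54.0 (24.6 and 30.7). ERBB3, a receptor of neuregulins, fell from 54.9 to 27.7 (27.8 and 29.7), and UQCRC2, a core subunit of respiratory complex III, from 152 to 66.4 (-1.18; parental 169 and 156), the only call among 26 genes of oxidative phosphorylation. Most of the rises, 89 of 123, and 114 of the 206 falls belonged to no list. Outside the lists, TSPYL2, a nucleosome assembly protein that restrains growth, went from 10.8 to 22.9 (15.2 and 15.5), SLC16A6, a transporter, from 21.9 to 43.1 (123 and 150), and TP53TG1, a p53-induced noncoding RNA, from 23.3 to 44.0 (31.4 and 27.1). SPP1 (osteopontin) rose from 9.84 to 20.1 (+0.96), far under the 505 and 409 of parental cells, the 428 and 440 of wildtype degron cells and the 53.2 and 54.8 of mutant degron cells. Among falls outside the lists was HMGB2, a chromatin protein of dividing cells, from 231 to 120 (179 and 191). AASS, the first enzyme of lysine breakdown, went from 14.9 to 6.62 (6.42 and 6.66), and NECAB2, a calcium-binding protein, from 19.2 to 9.36 (10.4 and 11.8). Both, like ERBB3, started well above parental cells and ended near their level. ANAPC15, a subunit of the anaphase-promoting complex, went from 68.5 to 33.9 (64.1 and 60.2).

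Among the called genes, those that rose were split by where they started. Of the 123, 53 ended above both parental libraries after starting at or below the higher of them, a course that 8.67% of all genes took. A further 31 were above in both states (25.2%, against 32.4% of all genes) and 30 below in both (24.4%, against 35.8%). With Shld withdrawn, 47 were the highest of the 8 libraries (38.2%). Of the 206 that fell, 126 ended below both parental libraries after starting at or above the lower of them, against 10.8% of all genes, and 133 (64.6%) were the lowest of the 8. Choosing genes by this pair favours such positions, so these are descriptions.

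The wildtype degron pair, which by the column names lasted 2 days against 4, is set beside the knockout pair without a test, since each has 1 library a side. Genes that rose in the knockout pair had a median of +0.73 there and +0.21 in the wildtype degron pair, and 109 of the 123 were above 0 in the latter (88.6%, against 53.8% of all genes). Those that fell had medians of -0.70 and -0.26, with 11 of 206 above 0 (5.34%). In the parental pair the medians were +0.07 and -0.03. Called in both pairs were 6 higher genes, 4.88% of the knockout and 35.3% of the wildtype degron rises, and 13 lower genes, 6.31% and 27.7%. Over all genes 0.198% rose and 0.546% fell in the wildtype degron pair, and 1.43% and 2.4% in the knockout pair. The 6 were EGR3, LINC00152, PCNA-AS1, PLXNA2, PYGB and S100B. S100B, a calcium-binding protein of pigment cells, went from 20.7 to 33.8 in the knockout line and from 62.9 to 102 in the wildtype degron line. The 13 included HIST1H1C, the noncoding RNA LINC00263 (14.8 to 7.3 and 24.1 to 13.6), CPNE7 (36.5 to 21.1), HYI (32.3 to 19.99), LPCAT3, CHCHD6 and ANAPC15. CDKN1A differed by +1.73 in the knockout pair and +0.38 in the wildtype degron pair, mitosis genes by medians of -0.59 and -0.14, and replication genes by -0.47 and -0.15.

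Some calls recurred in parental cells, which by the labels have nothing for Shld to act on. Over all genes 2.4% fell in the knockout pair and 0.779% in the parental pair. Called lower in both were 9 genes, 4.37% of the knockout and 13.4% of the parental falls. They included RPL22L1, a ribosomal protein paralog (71.5 to 32.7, and 160 to 92.6 in parental cells), SNHG5, a small nucleolar RNA host (1456 to 792, and 2793 to 1814), PIF1, a helicase (13.8 to 7.0, and 15.5 to 9.65), S100A4 (6.06 to 3.04, and 14.1 to 5.22) and HNRNPH1. PCNA-AS1, antisense to the clamp gene PCNA, was listed near 0 with Shld and at 5.5 without in the knockout line, and near 0 and at 2.74 in parental cells. It was called higher in all 4 pairs, at 0.203 and 33.1 in the wildtype degron line and near 0 and at 8.22 in the mutant degron line. SLC30A1, a zinc exporter, went from 14.6 to 22.7 and from 5.51 to 8.78. Whether counting used strand is not given in the sources used here, so reads of PCNA-AS1 and PCNA cannot be told apart.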

How the data were processed

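Total transcript levels of 8 MEL202 libraries were used, each 1 line and Shld state. By the labels' protocols, RNA was prepared with a TruSeq kit and read in pairs on a HiSeq. TopHat, Cufflinks and hg19 are named, with no role or order, in the submitters' processing notes. Their versions, the annotation and the strand setting were not given in the sources used here. A single table of FPKM values was deposited by the authors, rescaled so that the 75th percentile of each library is 10. That FPKM was rescaled is read from Cufflinks and the values. Absolute depth is unknown, since the values are not counts, and only relative fragments per unit were read from low values.

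Columns were matched to samples by name, with 0 columns unused. Small RNAs and unnamed loci were set aside, 1 locus per symbol was kept (highest mean), and log2(value + 1) was differenced within each pair, a scale that understates changes of low genes. Genes were named by a written rule: the 20 largest rises and falls with the parental pair inside the limit, called or extreme members of each role of 44 lists (1273 entries), SF3B1, and genes called in another pair. Genes at the limit and uncalled members named for contrast, such as LIN54, DDB2 and XPC, and a few genes called in another pair, such as S100A4, were chosen after their values were seen. Some genes are not reported here. The members and lists were chosen with earlier results of these data known. Python 3.11.15 was used, with limma 3.58.1 in R 4.3.3 for an alternative, and the calls were tested on simulated data. Alternatives were other pseudocounts, level filters, scalings and limits. Promoters came from RefSeq (GRCh38.p14) and were matched by symbol, while gene structure came from GENCODE 29.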

Additional observations from a re-analysis of the deposited data

Results flagged for a closer look

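Several genes called in the knockout pair were called the opposite way in another pair, and none of these differences between pairs was tested, since each pair has 1 library a side. APOOL, a mitochondrial cristae protein, differed by -1.18 in the knockout pair (12.8 to 5.11) and by +0.71 in parental cells (6.71 to 11.6). TCF25 differed by +1.13 (5.61 to 13.5) against -0.78 in parental cells, and DSP, a desmosome protein, by +1.09 (5.1 to 11.99) against -0.64. HOTAIRM1, a noncoding RNA of the HOXA cluster, differed by +0.95 against -0.60, and RHPN1 by +0.71 against -0.62. COLEC12, a scavenger receptor, differed by +0.81 in the knockout pair (5.83 to 10.99) and by -0.61 in the wildtype degron pair (1.67 to 0.755). TRAF3IP2-AS1, an antisense RNA, differed by +0.64 in the knockout pair (4.63 to 7.77) and by -0.68 in the mutant degron pair (6.75 to 3.85).

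Loci outside the 8601 named genes were past the 1.5-fold limit as well. Of 146 small RNA loci 18 were, 6 higher and 12 lower, against 4 and 10 in parental cells. Of 1061 loci with no gene symbol 84 were, 45 higher and 39 lower, against 14 and 34.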

How the results depend on the processing

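The counts of called genes moved with the level filter, the pseudocount and the limit. In the order knockout higher, knockout lower, parental higher and parental lower, the main counts were 123, 206, 9 and 67. With a pseudocount of 5 they were 58, 100, 4 and 34, with a pseudocount of 0.1 170, 251, 20 and 79, and at 2-fold 15, 14, 2 and 3. With a mean of at least 1 they were 206, 295, 36 and 129, with a mean of at least 10 87, 160, 4 and 50, and with no level filter 249, 347, 74 and 195. Scaling moved them little: 122, 209, 6 and 77 with medians set to 0, and 118, 192, 10 and 54 with quantile normalization, which called 108 of the 123 and 189 of the 206. With the parental difference subtracted, 240 genes were higher and 268 lower, with 78 of the higher genes among the main calls. S100A4 then turned from -0.81 to +0.48 and IMMP1L from -0.67 to +0.088, while no other called gene named here changed sign. As an alternative that borrows the spread of the parental pair for an arm of 1 library, limma called 84 higher and 153 lower at an adjusted p of 0.05, with 1127 at an unadjusted p below 0.05. No list median moved by more than the parental standard deviation of 0.20 under other pseudocounts or scalings, and 14 of 112 medians of lists and roles did when the parental difference was subtracted. No paired analysis was possible because each group had 1 library, and for the same reason no library could be left out. By its low values the knockout library without Shld was the shallower of its pair, and the part of depth in the results was not tested.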
